A study of Mus musculus with 4 samples.

Results

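The lung library labelled Hez was set against the wild-type lung library, 1 against 1, over the genes that averaged 5 reads per 1e6 gene-assigned reads (CPM) or more across 4 libraries. That minimum kept 12085 of the 21931 genes of the table. All 4 libraries were made from lung tissue of C57BL6 mice aged 2 months that received no further treatment. The genotype labels name 1 mouse as wild type, 1 as Hez and 2 as Dnah9 knockout, and neither the word Hez nor the way the gene was disrupted is spelled out, so Hez is kept here as written. With 1 library on each side, the difference between Hez and wild type has no replicate check and is described without a test. The 2 knockout libraries, called knockout 1 and knockout 2, carry the same label, and the gap between them shows how far libraries of one label lay apart. Every confidence interval given here covers counting error only.

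Dnah9 encodes one of the heavy chains of the ciliary outer dynein arms, the motors on the microtubule doublets that make motile cilia beat. In the lung these cilia sit on the multiciliated cells of the conducting airways, next to club and goblet cells, which secrete mucins, secretoglobins and host-defence proteins, and the airway wall beneath them holds a layer of smooth muscle. Inner dynein arms, radial spokes and the central pair shape the beat, docking and assembly factors put the arms in place, and intraflagellar transport builds motile and primary cilia alike.

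Total read counts ran from 15860478 to 16553480, mitochondrially encoded genes took 3.02 to 3.36% of reads, and scaling factors ran from 0.993 to 1.01. Markers of lung were high in every library. Sftpc, the surfactant protein C gene of alveolar type 2 cells, stood at 12158 to 13878 CPM and Scgb1a1, the main secretoglobin of club cells, at 12092 to 16721 CPM. No gene of the basal cell, thymus, cartilage, thyroid, squamous epithelium or liver lists averaged 5 CPM, and each of these lists summed to between 2.03 and 11.9 CPM. The Y-linked gene Ddx3y stood at 128 to 139 CPM in all 4 libraries.

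Dnah9 (ENSMUSG00000056752; chromosome 11, 65722108 to 66059377 on the GRCm39 build, minus strand) had 917 reads in wild type and 420 in Hez, against 240 and 254 in knockouts 1 and 2. Scaled to library size, wild type stood at 56.6 CPM (95% interval 53.0 to 60.3) and the Hez library at 25.4 (23.0 to 27.9). The knockout libraries stood at 14.8 (13.0 to 16.7) and 15.99 (14.1 to 18.1). Hez lay between wild type and the knockout pair, and its interval met neither. Its level was 44.9% of wild type (interval of the ratio 39.9 to 50.4%), a difference of -1.15 in log2 CPM. The knockout libraries differed by 0.11. Per length, Dnah9 stood at 3.57 FPKM in wild type and 1.59 in Hez, while Dnah5, the other main outer-arm heavy chain of airway cilia, stood at 6.81 and 4.41.

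Across all genes the Hez and wild-type libraries lay about as close as the knockout pair did. The median absolute difference was 0.109 in log2 CPM between Hez and wild type and 0.117 between the knockout libraries, and the median signed difference was 0.01. Genes at 100 CPM or more had median absolute differences of 0.078 and 0.076, and genes between 5 and 10 CPM had 0.22 and 0.23. Large differences between Hez and wild type ran mostly in one direction. In Hez, 43 genes were lower by 2-fold or more (0.356% of genes) and 7 were higher (0.0579%). At 1.5-fold or more, 305 genes were lower (2.52%) and 63 higher (0.521%). Between the knockout libraries 98 genes lay 2-fold or more apart (0.811%), of which 61 were lower and 37 higher in knockout 2, and 400 genes lay 1.5-fold or more apart (3.31%).

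**Figure D1:**
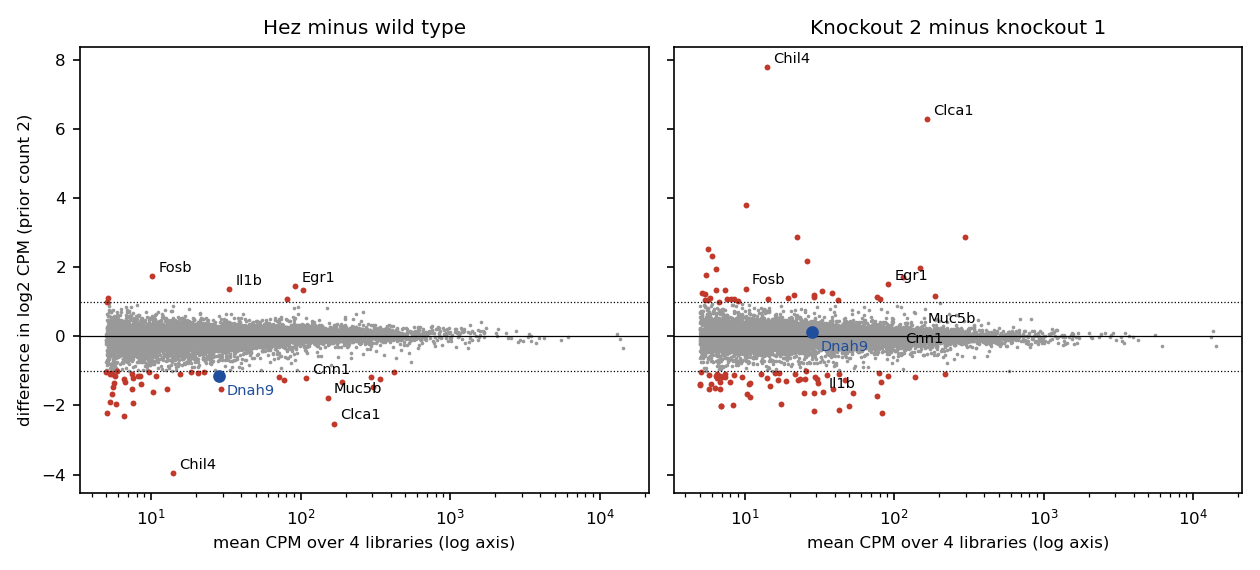
Difference in log2 CPM of each of the 12085 genes against its mean CPM over the 4 libraries (log axis), for Hez minus wild type on the left and knockout 2 minus knockout 1 on the right. Red points lie beyond the dotted lines at 2-fold, and on the left 43 of them are below and 7 above, against 61 below and 37 above on the right. Dnah9 (blue) lies at -1.15 on the left and 0.11 on the right, and the left-hand position of Chil4, which had 0 reads in Hez, depends on the prior count of 2 reads.

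The genes that were lower and those that were higher in Hez differed in how the knockout libraries stood. For 32 of the 43 lower genes (74.4%) the knockout libraries lay within 1.5-fold of each other, a smaller share than the 96.7% of all genes. For the 7 higher genes this held for 2, Ros1 and Tmem59l. Counting intervals of the ratio excluded equal levels for all 43 and all 7 genes, and lay wholly beyond 2-fold for 22 and 4. The genes were chosen on these same counts, so the intervals are no separate support for them. Low levels set a limit, since 20 of the 43 lower genes stood under 5 CPM in Hez. Some of the 43, such as Igdcc4 and Lca5l, averaged under 5 CPM without wild type and so passed the minimum through it. The minimum itself was passed narrowly by Praf2 and Coa4, with differences of -0.96 and -1.03, and missed narrowly by Zfp174 and Tmem28, with -0.38 and 0.20.

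Structural genes of motile cilia were lower in Hez in nearly all members listed. In 5 lists of axonemal and ciliated-cell genes (outer arms, inner arms, docking and assembly, spokes with central pair and nexin link, ciliated-cell structure), 87 genes averaged 5 CPM. Of these, 85 were lower in Hez than in wild type and 41 were lower by 1.5-fold or more, with a median of -0.57. The same genes had a median of -0.01 between the knockout libraries, where 2 of 87 lay 1.5-fold or more apart. Among all genes 5831 were lower and 6254 higher in Hez, with a median of 0.01. The summed level of the 97 listed genes was 3283 CPM in wild type, 2275 in Hez, 2447 in knockout 1 and 2430 in knockout 2. Hez thus stood at 69.3% of wild type and slightly below both knockout libraries, with the wild-type library the high one of the 4. None of the 87 genes was lower in Hez, relative to wild type, than Dnah9 itself. Outside these lists, Ccdc96, which carries a cilium term in the deposited gene ontology column, stood lower than Dnah9, at -1.19.

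Outer-arm subunits had the smallest shift of the 5 lists, with a median of -0.36 over 9 genes, all lower in Hez. Dnah5 stood at 106 CPM in wild type, 69.0 in Hez, 75.4 in knockout 1 and 79.8 in knockout 2, a difference of -0.61. Dnai2, an intermediate chain, stood at 27.5, 17.9, 22.0 and 20.7 CPM in the same order (-0.62), and Dynlrb2, a light chain, at 41.6, 28.1, 30.8 and 27.4 CPM (-0.57). In all 3 the wild-type library was above the other libraries, which lay close together. Dnah11, the other outer-arm heavy chain of airway cilia, differed less, at 33.1, 25.8, 24.8 and 28.5 CPM (-0.36). Dnal4 and Dynll1, light chains that also serve dyneins outside the cilium, differed by -0.08 and -0.20.

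Inner-arm subunits had a median of -0.53 over 12 genes, 11 of them lower. Dnah3 stood at 72.1 CPM in wild type, 46.6 in Hez, 45.5 in knockout 1 and 50.2 in knockout 2, and Dnah1 at 26.1, 16.9, 19.7 and 17.1 CPM, each a difference of -0.63. Dnah6 was the most abundant by reads, at 147, 104, 98.3 and 91.6 CPM (-0.49). Dnah7b was the exception at 0.08, but Dnah7a, Dnah7b and Dnah7c are close copies whose reads the counting may have divided, and Dnah7a and Dnah7c stood at -0.43 and -0.55.

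Docking and assembly genes had a median of -0.58 over 14 genes, 13 of them lower. Efcab1 (also called Clxn), a calcium-binding protein of the outer-arm docking site, stood at 26.5 CPM in wild type, 14.3 in Hez, 17.7 in knockout 1 and 16.6 in knockout 2, a difference of -0.89. Odad1, a subunit of the docking complex, stood at 21.3, 11.6, 14.7 and 13.1 CPM (-0.87), and Lrrc6, an assembly factor, at 13.8, 7.92, 9.59 and 9.51 CPM (-0.79). Cfap298 stood at 12.1 CPM in both Hez and wild type. The spoke, central-pair and nexin-link list was lower in all 29 genes, with a median of -0.59 and 15 genes lower by 1.5-fold or more. Cfap46, a central-pair protein, stood at 42.1 CPM in wild type, 23.0 in Hez, 32.4 in knockout 1 and 26.1 in knockout 2 (-0.87), and Ccdc65, of the nexin link, at 11.6, 6.35, 6.40 and 6.86 CPM (-0.86). Rsph4a, a radial spoke head protein, stood at 48.1, 29.6, 33.6 and 33.9 CPM (-0.70).

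Ciliated-cell structural and marker genes had the lowest median of the 5 lists, -0.65, with all 23 genes lower and 14 lower by 1.5-fold or more. Cfap45, a protein inside the doublet microtubules, stood at 23.8 CPM in wild type, 11.1 in Hez, 12.9 in knockout 1 and 14.1 in knockout 2, and was the one gene of the list lower by 2-fold or more (-1.10). Ak7, an adenylate kinase of motile cilia, stood at 61.0, 34.2, 41.5 and 44.7 CPM (-0.83), and Sntn, which encodes sentan of the ciliary tip, at 22.9, 13.0, 15.9 and 15.9 CPM (-0.81). Tppp3, the most abundant of the list by reads, differed least among these, at 362, 269, 323 and 310 CPM (-0.43). Genes named in each list were taken from those with the largest differences, not all of which are given. Other members, such as Rsph4a and Dnah6, were added after their values were seen.

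The list of genes that switch the ciliated programme on had a smaller median difference than the structural lists. Its members Foxj1 and Ccdc78, however, stood near the joint median of the 5 cilia lists, -0.57. Over the 12 genes of the transcription and centriole list the median was -0.32, with 10 lower. Foxj1, the forkhead factor that drives motile cilium genes, stood at 104 CPM in wild type, 68.4 in Hez, 70.6 in knockout 1 and 71.0 in knockout 2 (-0.60), so its level in Hez was 66.0% of wild type (61.1 to 71.2%). Ccdc78, of the deuterosome, stood at 24.6, 15.96, 17.6 and 18.5 CPM (-0.62), and Myb at 21.3, 15.2, 15.6 and 14.6 CPM (-0.49). Rfx3, Trp73, E2f4 and E2f5, which are also expressed outside ciliated cells, lay between -0.08 and 0.07. Intraflagellar transport and BBSome genes, shared with the primary cilia of most cells, had a median of -0.10. Of these 29 genes 25 were lower and none by 1.5-fold or more. Traf3ip1 (85.4, 59.4, 59.3 and 56.6 CPM; -0.52) and Ift22 (-0.52) were among the lowest of them, while Ift20, Ttc21b and Arl6 stood at -0.01 to 0.00.

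Some promoters of the axonemal genes held a short motif of the ciliary programme. RFX factors, which act with Foxj1 on ciliary genes, bind the X-box, and each arm of that box reads close to GTTNCCAT. RefSeq promoters (GRCm38.p6, a build other than that of the table, so its coordinates are used for these sequences only) were searched on both strands over the 250 bases before each start. The motif was found in 13 of 73 promoters of the 5 cilia lists (17.8%; 66 of 87 genes matched), in 7 of 25 of the ciliated-cell list (28%) and in 4 of 25 of the spoke list (16%). It was found in 3.70% of all 32851 promoters and in 2.95% of those of the genes at 5 CPM or more. It was in 0 of 27 intraflagellar transport and BBSome promoters, 1 of 16 club and goblet promoters and 0 of 7 smooth muscle promoters. The other cilia lists had it in 1 of 7 outer-arm, 1 of 9 inner-arm and 0 of 7 docking and assembly promoters. Of promoters of the genes lower by 1.5-fold or more but outside the 5 cilia lists, 13 of 232 held it (5.60%). Promoters of genes higher by 1.5-fold or more held it at a similar share, 3 of 62 (4.84%). A match only says that these letters are present. The sequences that follow are the 4 motif-holding promoters of cilia-list genes with the lowest Hez-to-wild-type difference, each 5′ to 3′ on the strand of its gene and ending at the base before the start, with the motif in capitals: Cfap45 (chr1:172520880-172521129, plus strand, motif on the opposite strand 13 to 6 bases before the start), Sntn (chr14:13670626-13670875, plus strand, 66 to 59 bases before), Tekt1 (chr11:72361883-72362132, minus strand, 15 to 8 bases before) and Iqcg (chr16:33056187-33056436, minus strand, 19 to 12 bases before).
Cfap45: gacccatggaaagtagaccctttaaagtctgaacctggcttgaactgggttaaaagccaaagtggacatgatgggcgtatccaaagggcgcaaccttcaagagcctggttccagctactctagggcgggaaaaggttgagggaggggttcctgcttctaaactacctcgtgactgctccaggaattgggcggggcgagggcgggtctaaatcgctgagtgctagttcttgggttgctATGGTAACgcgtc
Sntn: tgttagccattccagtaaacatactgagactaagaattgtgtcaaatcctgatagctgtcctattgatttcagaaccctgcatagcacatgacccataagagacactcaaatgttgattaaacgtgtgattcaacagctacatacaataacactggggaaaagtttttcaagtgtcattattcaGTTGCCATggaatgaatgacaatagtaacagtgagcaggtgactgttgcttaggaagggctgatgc
Tekt1: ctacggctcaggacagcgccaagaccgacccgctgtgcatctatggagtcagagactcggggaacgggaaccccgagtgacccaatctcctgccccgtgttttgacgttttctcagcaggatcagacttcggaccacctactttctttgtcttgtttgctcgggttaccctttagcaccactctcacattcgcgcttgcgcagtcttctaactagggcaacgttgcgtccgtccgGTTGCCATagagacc
Iqcg: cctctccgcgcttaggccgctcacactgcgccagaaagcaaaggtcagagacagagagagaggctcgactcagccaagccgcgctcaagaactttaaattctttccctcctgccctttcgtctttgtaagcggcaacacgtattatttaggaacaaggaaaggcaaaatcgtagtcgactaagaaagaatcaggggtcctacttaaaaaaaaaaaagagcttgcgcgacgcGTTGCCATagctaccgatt
In Cfap45, Tekt1 and Iqcg the motif lay within 19 bases of the start. Tekt1, a tektin of the doublet microtubules, stood at 19.1 CPM in wild type, 11.9 in Hez, 15.9 in knockout 1 and 14.5 in knockout 2 (-0.68), and Iqcg, of the nexin link, at 25.6, 16.4, 17.5 and 14.7 CPM (-0.64).

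Secretory genes of the airway had a lower median than the cilia lists, but their summed level was closer to wild type, at 79.3% in Hez. Scgb1a1 makes up most of that sum, and its own difference was -0.33. The club and goblet cell list had a median of -0.97 over 19 genes, all lower in Hez, with 11 lower by 1.5-fold or more and 8 by 2-fold or more. Muc5b (ENSMUSG00000066108; chromosome 7, 141392807 to 141426821), the secreted mucin of resting airways, stood at 267 CPM in wild type, 77.98 in Hez, 119 in knockout 1 and 143 in knockout 2. Hez was the lowest library at 29.2% of wild type (27.5 to 31.1%), a difference of -1.77, and the knockout libraries differed by 0.27. Scgb3a1 (chromosome 11, 49554437 to 49555945), a secretoglobin of the upper airways, stood at 522, 189, 245 and 255 CPM in the same order (-1.47). Scgb3a2 differed by -1.03 and the host-defence gene Bpifa1 by -1.23. For Muc5b, Scgb3a1 and Scgb3a2 the wild-type library was the highest, Hez the lowest, and the knockout pair close together between them. For Scgb3a2, Hez (318 CPM) was close to knockout 2 (331 CPM). Bpifa1 stood at 611, 260, 216 and 272 CPM, so Hez lay between the knockout libraries. Bpifb1, another host-defence protein of airway secretions, stood at 296, 119, 103 and 231 CPM (-1.32), and Reg3g, an antimicrobial lectin, at 132, 55.1, 37.4 and 82.0 CPM (-1.26), so for both Hez lay between the knockout libraries. The shift was uneven within the list, because the most abundant club cell genes differed little. Scgb1a1 stood at 16721 CPM in wild type, 13347 in Hez, 14777 in knockout 1 and 12092 in knockout 2 (-0.33). Cyp2f2, a cytochrome P450 of club cells, stood at 1629, 1501, 1313 and 1126 CPM (-0.12), and Cbr2 at 2654, 2577, 2190 and 2300 CPM (-0.04).

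Several other genes, most of them of goblet cells or type 2 inflammation, were lower in Hez but lay far apart between the knockout libraries. Apart from Agr2 and Tff2, which are in the club and goblet list, they belong to no list and were grouped after their values were seen. Of the list, 5 of the 19 club and goblet genes were 1.5-fold or more apart in the knockout pair. Clca1 (ENSMUSG00000028255; chromosome 3, 144709578 to 144738537), secreted by goblet cells, stood at 56.9 CPM in wild type and 9.79 in Hez (-2.52), but at 7.44 in knockout 1 and 590 in knockout 2, a gap of 6.29. Chil4, a chitinase-like protein induced in type 2 inflammation, had 29 reads in wild type and 0 in Hez, at least 9.86-fold lower against a floor of 3 reads. Its level was 0.12 CPM in knockout 1 and 54.1 in knockout 2. Chil4, Agr2, Fer1l6 and Gp2 averaged under 5 CPM over the other 3 libraries and so passed the minimum through knockout 2, which makes their high level there a condition of their being counted. Gp2 also averaged under 5 CPM without wild type. Retnla, another gene of type 2 inflammation, stood at 123 CPM in wild type, 54.2 in Hez, 122 in knockout 1 and 889 in knockout 2 (-1.18). Agr2, which helps mucins fold, stood at 7.46, 2.84, 1.72 and 10.6 CPM (-1.36), and Fer1l6, of the ferlin family, at 6.85, 2.18, 2.03 and 29.8 CPM (-1.60). Gp2, a glycoprotein of secretory granules and M cells, stood at 7.40, 2.24, 2.71 and 9.63 CPM (-1.67), and Tff2, a trefoil peptide of mucus, at 21.5, 7.38, 8.12 and 14.3 CPM (-1.53). In Clca1, which passed the minimum without knockout 2 as well, Hez stood near knockout 1 while knockout 2 was above wild type, so the gap between 2 libraries of one label was larger than that between Hez and wild type.

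Smooth muscle genes were lower in Hez in all 10 members at 5 CPM or more, with a median of -0.65 and 7 lower by 1.5-fold or more. Cnn1 (ENSMUSG00000001349; chromosome 9, 22010512 to 22020926), calponin of contractile smooth muscle, stood at 169 CPM in wild type, 73.2 in Hez, 105 in knockout 1 and 84.8 in knockout 2 (-1.20). Actg2, a smooth muscle actin, stood at 109, 48.0, 67.1 and 59.9 CPM (-1.19), and Acta2, the actin of vascular and airway smooth muscle, at 689, 410, 573 and 527 CPM (-0.75). Myh11, the smooth muscle myosin heavy chain, stood at 548, 352, 440 and 385 CPM (-0.64). In all 4 the wild-type library was the highest and Hez the lowest. Myocd stood at 9.31, 5.26, 4.80 and 5.35 CPM in the same order (-0.81), so knockout 1 was its lowest library. Mylk and Smtn differed little, at -0.05 and -0.14. The summed level of the list in Hez was 67.7% of wild type. Pericyte genes, which mark the mural cells of small vessels, had a median of 0.05, and heart muscle genes, from myocardium around the pulmonary veins, had -0.02. Fibroblast and matrix genes were mixed, with 19 of 24 lower and a median of -0.21, from Pi16, of adventitial fibroblasts, at -0.90 and Lum at -0.74 to Inmt at 0.43 and Mfap4 at 0.28. Ciliated and secretory cells belong to the conducting airway, while smooth muscle is shared by airways and vessels. For the cilia and smooth muscle lists and for the club and goblet list alike, the wild-type library had the highest summed level of the 4 libraries. The part that the share of airway in the sampled tissue had in these differences was not tested, and in bulk tissue fewer cells of a type and less RNA per cell cannot be told apart. With 1 wild-type library, its genotype and its own deviation from other lungs cannot be told apart either.

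**Figure D2:**
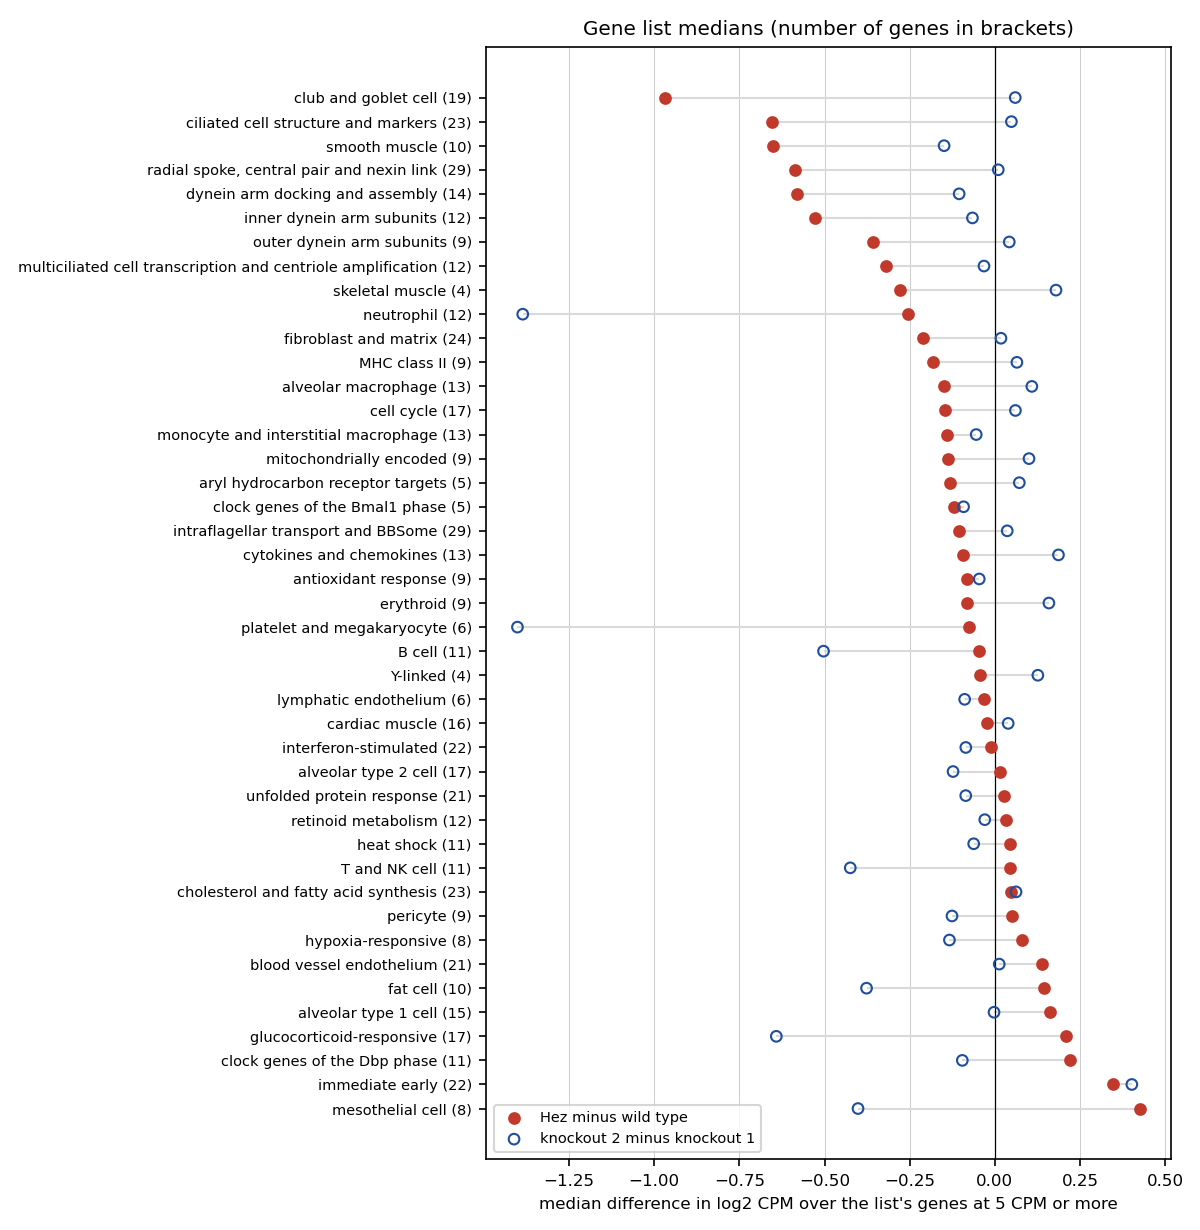
Median difference in log2 CPM of each gene list with at least 4 genes at 5 CPM or more (number of genes in brackets), with filled red points for Hez minus wild type and open blue points for knockout 2 minus knockout 1. The club and goblet, smooth muscle, 5 cilia and multiciliated-cell transcription and centriole lists have red points from -0.97 to -0.32 with blue points between -0.15 and 0.06. The neutrophil and platelet lists have blue points at -1.39 and -1.40 with red points at -0.25 and -0.08.

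Alveolar and vascular genes were close to equal or slightly higher in Hez. Alveolar type 2 genes had a median of 0.01 over 17 genes, between -0.17 for Ctsh and 0.21 for Abca3, the lipid transporter of lamellar bodies, and Sftpc stood at 0.06. In alveolar type 1 genes the median was 0.16 and 13 of 15 were higher, and blood vessel endothelium had 0.14, with 20 of 21 higher. Ager, the receptor abundant on type 1 cells, stood at 1494 CPM in wild type, 1672 in Hez, 1533 in knockout 1 and 1598 in knockout 2. Cdh5, the cadherin of endothelial junctions, stood at 1119, 1272, 1188 and 1196 CPM. None of the genes of these 3 lists differed by 1.5-fold or more. All 9 genes of MHC class II antigen presentation at 5 CPM or more were lower in Hez, with a median of -0.18, and Cd74 stood at 600.3 CPM in wild type, 529 in Hez, 725 in knockout 1 and 724 in knockout 2. The heat shock, unfolded protein response, cholesterol and fatty acid synthesis, and interferon-stimulated lists had medians between -0.01 and 0.05.

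**Figure D3:**
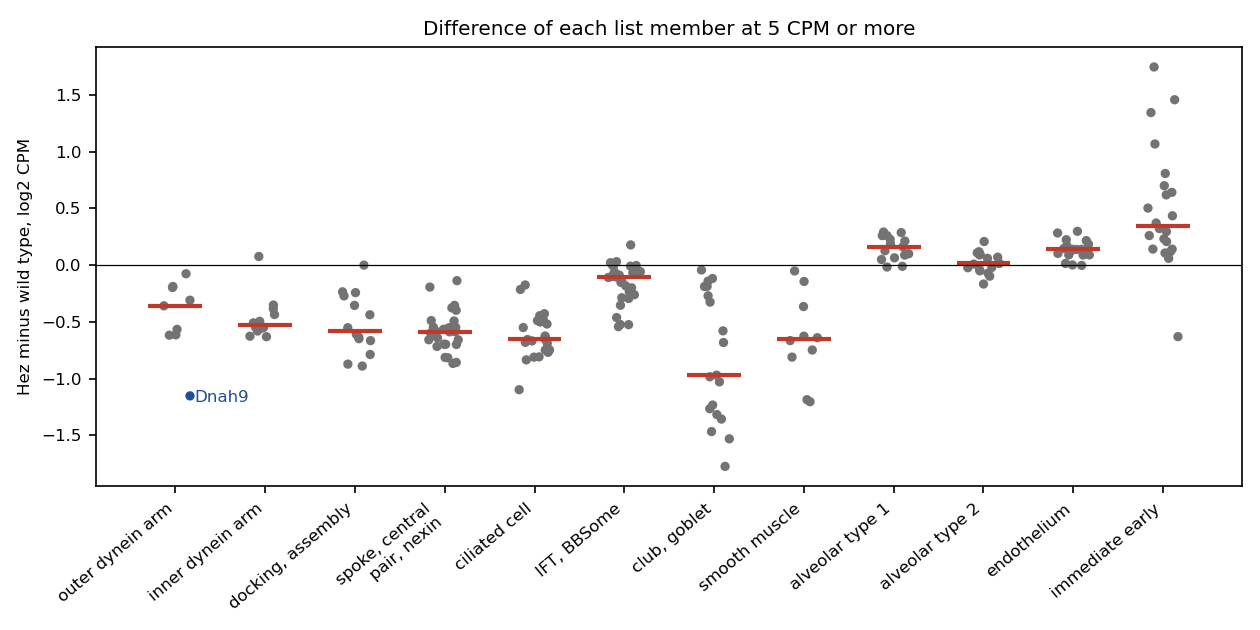
Difference in log2 CPM between Hez and wild type for each member at 5 CPM or more of 12 lists, with the red bar at the list's median. Dnah9 (blue, -1.15) lies below all other members of the cilia lists, the club and goblet list reaches from -1.77 to -0.04, and alveolar and endothelial members lie between -0.17 and 0.30.

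Immediate early genes, which cells transcribe within minutes of a stimulus, were higher in Hez, and the knockout libraries differed as much. The list had a median of 0.35 over 22 genes, 21 of them higher and 8 by 1.5-fold or more. Between the knockout libraries the median was 0.40 and 10 of 22 lay 1.5-fold or more apart. Fosb (ENSMUSG00000003545; chromosome 7, 19036621 to 19043976) stood at 4.56 CPM in wild type, 15.6 in Hez, 5.60 in knockout 1 and 14.8 in knockout 2 (1.75). Egr1 stood at 34.6, 95.2, 61.5 and 174 CPM (1.46), Fos at 49.1, 125, 84.7 and 156 CPM (1.34), and Nr4a1 at 32.5, 68.3, 71.0 and 149.5 CPM (1.07). Wild type was the lowest library for all 4 genes, and for Egr1, Fos and Nr4a1 knockout 2 was the highest. Nr4a3 ran the other way at 13.8, 8.89, 16.1 and 4.66 CPM (-0.63).

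The remaining genes higher in Hez were few and mostly at low levels. Il1b, the cytokine interleukin 1 beta, stood at 17.5 CPM in wild type, 45.3 in Hez, 52.6 in knockout 1 and 17.2 in knockout 2, a difference of 1.36 beside a gap of -1.61 in the knockout pair. Ros1, a receptor tyrosine kinase, stood at 2.71, 6.05, 5.47 and 6.23 CPM (1.12), and Tmem59l at 2.84, 5.80, 5.72 and 5.92 CPM (1.001). Both were low in wild type and level in the other 3 libraries, and both averaged under 5 CPM without Hez and also without knockout 2. Below 2-fold came Siglech, a marker of plasmacytoid dendritic cells (4.07, 8.10, 4.74 and 3.97 CPM; 0.97), Bub1, a spindle checkpoint kinase (5.30, 10.04, 8.42 and 8.25 CPM; 0.90), Wfdc8 (0.89), Lrrn4 (0.89) and Hira, a histone chaperone (4.44, 8.10, 8.61 and 8.25 CPM; 0.85). Siglech and Wfdc8 averaged under 5 CPM without Hez and so passed the minimum through it, which makes their high level there a condition of their being counted. Wfdc8 and Hira overlap other genes, and no source used here states how strand was counted, so part of their reads may belong to those. Lrrn4 is a mesothelial marker, at 11.9 CPM in wild type, 22.1 in Hez, 15.4 in knockout 1 and 6.61 in knockout 2. The mesothelial list as a whole had the highest median of the lists, 0.42 over 8 genes, while the knockout pair had a median of -0.40.

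**Figure D4:**
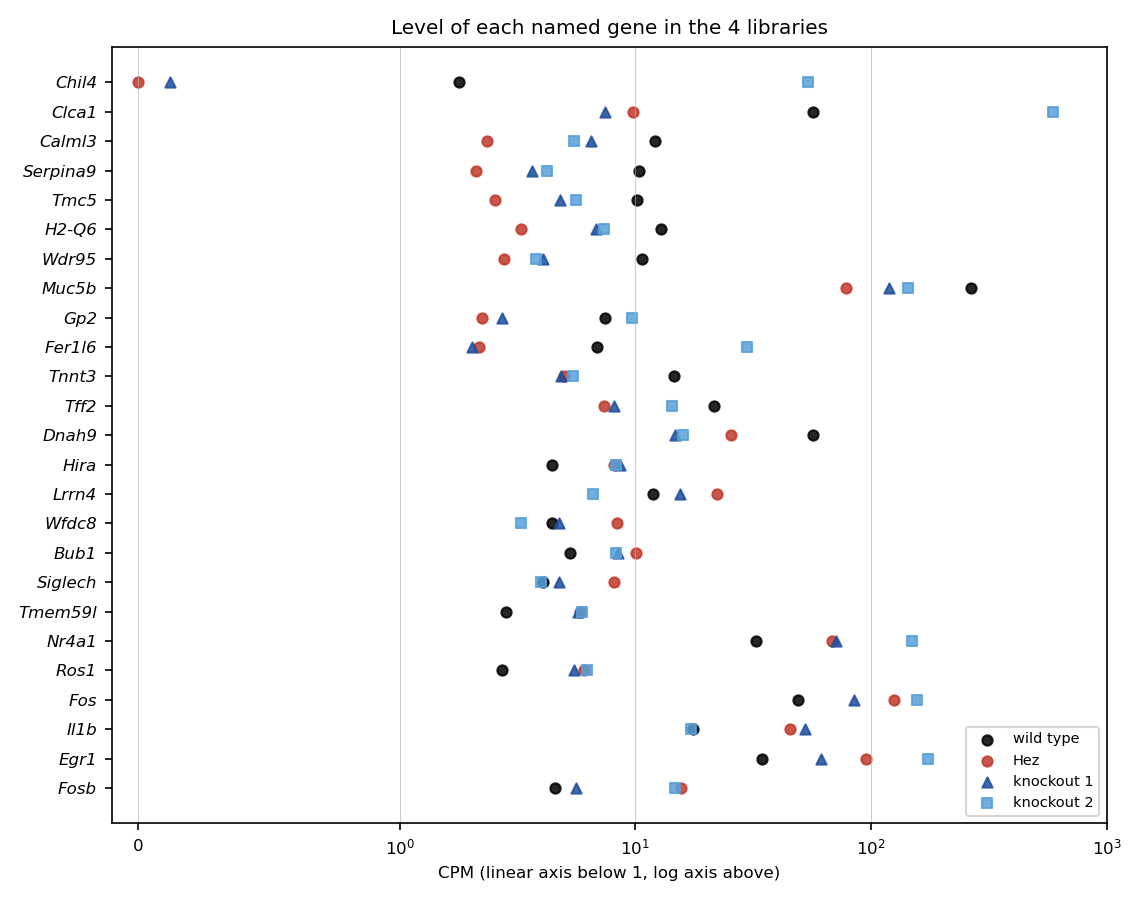
CPM of Dnah9 and of the 12 genes with the lowest and the 12 with the highest Hez-minus-wild-type difference, in each of the 4 libraries (linear axis below 1, log axis above). Tnnt3 and Wdr95 have wild type to the right of 3 libraries that lie together, while Clca1 and Fer1l6 have knockout 2 far to the right. Wdr95 averaged under 5 CPM without wild type, and Fer1l6 without knockout 2.

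Among the 12 genes furthest below wild type, 6 outside the secretory group had knockout libraries close together, at low levels. Calml3, a calmodulin-like protein of epithelia, stood at 12.2 CPM in wild type, 2.36 in Hez, 6.46 in knockout 1 and 5.48 in knockout 2 (-2.31), and Serpina9, a serine protease inhibitor, at 10.4, 2.12, 3.63 and 4.22 CPM (-2.23). Tmc5, of the transmembrane channel-like family, stood at 10.1, 2.54, 4.80 and 5.60 CPM (-1.94), and Wdr95 at 10.7, 2.78, 4.06 and 3.78 CPM (-1.89). In these 4 genes wild type was the highest and Hez the lowest library. All 4 averaged under 5 CPM without wild type and so passed the minimum through it. Their high level in wild type was thus a condition of their being counted. H2-Q6 (-1.94) belongs to a cluster of near-identical MHC class I genes, so its reads may be shared with its neighbours. Tnnt3, the fast skeletal muscle troponin T, stood at 14.6, 4.96, 4.86 and 5.41 CPM (-1.53), but it overlaps Prr33 on the opposite strand, and the 4 genes of the skeletal muscle list at 5 CPM or more had a median of -0.28. In all, 30 of the 43 lower genes belonged to no list. Picked from these after their values were seen, Nek10, a kinase known for its role in ciliated airway cells, stood at 13.1, 5.80, 6.76 and 8.12 CPM (-1.15), and Flnc, filamin C of muscle, at 31.5, 15.2, 20.4 and 14.5 CPM (-1.05). Of the 305 genes lower by 1.5-fold or more, 53 (17.4%) carried a cilium term in the deposited gene ontology column, as did 3.44% of all genes. The wider ontology group was less one-sided than the lists: of its 416 genes at 5 CPM or more 284 were lower and 132 higher, with a median of -0.11, and its 311 genes outside every list had a median of -0.05, with 188 lower, 123 higher and 21 lower by 1.5-fold or more. Of the 305 genes, 41 were in the 5 cilia lists, 11 in the club and goblet list and 7 in the smooth muscle list. The ontology group was added after the data were seen.

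Some groups that set the knockout libraries apart differed less between Hez and wild type. The single genes Zbtb16 and Lrat, given below, had knockout libraries within 1.5-fold of each other. Neutrophil genes had a median of -0.25 in Hez and -1.39 between knockout 2 and knockout 1, and the alarmin S100a9 stood at 89.2 CPM in wild type, 73.0 in Hez, 139 in knockout 1 and 29.7 in knockout 2. Platelet genes had medians of -0.08 and -1.40, and glucocorticoid-responsive genes 0.21 and -0.64. Zbtb16, a glucocorticoid-induced zinc finger gene, stood at 190 CPM in wild type and 129 in Hez (-0.56), and at 11.4 and 9.44 in knockouts 1 and 2, so Hez lay on the side of wild type. Lrat, which esterifies retinol, stood at 47.9 CPM in wild type, 84.3 in Hez, 114 in knockout 1 and 115 in knockout 2 (0.81), so Hez lay between wild type and the knockout pair. Of the 43 lists with at least 4 genes at 5 CPM or more, 28 had a median below 0 and 15 above. Medians of -0.3 or lower were found in 8 lists (6 of ciliary genes, the club and goblet list and the smooth muscle list) and of 0.3 or higher in 2 (mesothelial, immediate early), and in the knockout pair 8 lists lay beyond 0.3 in either direction.

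Clock and fat genes stood slightly higher in Hez than in wild type, and the summed levels of both lists were lower in the knockout libraries than in either. Of the clock genes that peak with Dbp, 8 of 11 were higher in Hez (median 0.22), and the list summed to 584 CPM in wild type, 708 in Hez, 471 in knockout 1 and 392.3 in knockout 2. Nr1d1, a repressor of the molecular clock, stood at 95.6 CPM in wild type, 126 in Hez, 75.0 in knockout 1 and 64.2 in knockout 2 (0.40), and Dbp at 11.4, 14.3, 4.98 and 7.62 CPM (0.33). Of the fat cell genes, 7 of 10 were higher (median 0.14), and the list summed to 314, 343, 229 and 171 CPM. Car3, a carbonic anhydrase abundant in fat, stood at 85.4, 112, 50.4 and 38.8 CPM (0.39), while Plin4 stood at 41.5, 28.0, 25.4 and 19.5 CPM (-0.56). Among alveolar macrophage genes 10 of 13 were lower (median -0.15), and the 9 mitochondrially encoded genes at 5 CPM or more were all lower, with a median of -0.14.

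Genes beside Dnah9 on chromosome 11 did not share its difference. Within 5 Mb on either side, 128 genes averaged 5 CPM or more, with a median of -0.02 between Hez and wild type. Of these, 2 were lower by 1.5-fold or more, Myocd, a coactivator of smooth muscle genes (9.31, 5.26, 4.80 and 5.35 CPM; -0.81), and Tnfsf12, and none was higher, against 9 that were 1.5-fold or more apart in the knockout pair. Chromosome medians ran from -0.01 to 0.03 over the 20 chromosomes with at least 100 genes. By gene length, the 2418 shortest genes had a median of -0.04 and the 2417 longest 0.03.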

How the data were processed

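RNA sequencing (TruSeq kit, Illumina HiSeq) covered lung tissue of 4 mice, per the labels' protocols. The authors deposited raw read counts and FPKM values per gene in 1 table, per the file headers. Reads were placed on GRCm39, per the submitters' processing notes. Aligner, counter, annotation release and the handling of strand are details not given in the sources used here. Each FPKM above 0 (66024 values) equals count over total and gene length within a relative tolerance of 1e-06. All sample columns were mapped by name.

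Counts were scaled with TMM in edgeR 4.0.16 (R 4.3.3) and turned into CPM. Differences are in log2 CPM with a prior count of 2, over genes with a mean of 5 CPM or more, with exact 95% counting intervals. Folds of 2 and 1.5 were used, with no test. The code was tested on simulated data. The genes named are Dnah9, the 12 lowest and 12 highest differences, and up to 4 members per list from those with the largest differences. Other genes were picked after their values were seen. Members and lists (54 lists, 797 symbols, 782 in the table, 584 at 5 CPM) were chosen with earlier results of these data known. Promoters came from RefSeq (GRCm38.p6). Alternatives were DESeq2 1.42.0 size factors, library totals, other minimum levels, prior counts of 0.5 and 5, log2 FPKM with pseudocounts, and each knockout library left out.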

Additional observations from a re-analysis of the deposited data

How the results depend on the processing

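Counts of genes past 2-fold depended on the minimum level and on the pseudocount. The 43 lower and 7 higher genes became 163 and 56 at a mean of 1 CPM and 766 and 347 with no minimum, and 20 and 5 at 10 CPM. On log2(FPKM + 0.5) 25 were lower, and on log2(FPKM + 1) 23 were lower and 4 higher. The 98 genes apart in the knockout pair became 311, 1198 and 59 at those 3 minimums, and 56 on log2(FPKM + 1). The Dnah9 difference of -1.15 became -0.96 on log2(FPKM + 0.5) and -0.82 on log2(FPKM + 1), since an added constant shrinks low values. TMM, DESeq2 size factors and library totals gave 43 to 45 lower genes, and put the median of all genes between -0.004 and 0.01. Leaving out a knockout library, which acts only through the minimum, gave 38 to 44 lower and 6 to 7 higher genes. A minimum over Hez and wild type alone, added after the data were seen, gave 43 and 5, of which 39 and 5 were the same genes. No named difference beyond 0.1 in size, and no list median beyond it, changed sign under any setting run. The club and goblet median moved from -0.97 to -0.83 at 10 CPM and also when either knockout library was left out, since fewer or other genes then passed the minimum. No value can be had without the Hez or the wild-type library. No paired analysis was possible because the groups share no replicate number that pairs mice. Depth limits genes near 5 CPM, where the median absolute difference was 0.22.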
